A study of Mus musculus with 8 samples.

Results

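Mouse Zfp genes encode zinc finger proteins, most of them of the C2H2 type, in which a pair of cysteines and a pair of histidines hold a zinc ion and the fold reads a few bases of DNA. Many also carry a Krüppel-associated box (KRAB), which recruits the corepressor Trim28 and the histone methyltransferase Setdb1 and so silences chromatin, in particular at transposable elements. KRAB zinc finger genes multiplied by local duplication and often lie side by side in clusters. Other members without a KRAB box act as promoter factors, in neural development or in RNA and protein turnover.

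The members were the loci of 4 deposited comparison tables whose symbols include Zfp followed by digits only, leaving out Zfp36 and Zfp488, with a value in all 4 groups. There were 171 of them, out of 256 such loci in any table, and 7303 genes in all had a value in 4 groups. Of the members, 147 carried 1 symbol and 24 were loci in which neighbouring or overlapping genes were joined. One of these, Commd5,Rpl8,Zfp7, holds the abundant ribosomal protein gene Rpl8, so its level is not that of a zinc finger gene. The 171 loci name 182 Zfp symbols, all matched to the mouse annotation, 3 of them by an older symbol. Coding models existed for 179, of which 172 had at least 1 C2H2 finger and 111 a KRAB box. The median was 11 fingers and the highest 36.

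RNA was taken from cerebellum of male C57Bl/6 mice at postnatal day 40. The 4 groups were Snf2h cKO-Nestin runners, Snf2h cKO-Nestin sedentary mice, control runners and control sedentary mice, with 2 libraries each, and every library pooled 3 cerebella. Within each group, 1 library is titled Lane A and the other Lane B, with no other mark between them. The series' design text calls them biological replicates, but no label says that the lanes hold different pools, so the q values and the z test may rest on technical spread. Snf2h, the chromatin remodelling ATPase encoded by Smarca5, is deleted where the Nestin driver acts, that is in neural progenitors and the cells they give rise to, so cells of other origin keep the gene. The labels do not describe the controls further. Each gene has 1 FPKM value per group (fragment counts corrected for the length of the transcript and the size of the library), combined by the authors over the libraries of the group, so no SD can be given. Sequencing depth per library is unknown here. Smarca5 stood at 5.38 FPKM in cKO runners and 4.94 FPKM in cKO sedentary mice, against 12.96 FPKM in control runners and 12.6 FPKM in control sedentary mice.

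The tables hold nearly only genes that passed the authors' test in that comparison. Having a value in 4 groups therefore favours genes with a genotype difference in either direction, and 93.9% of the 7303 genes were called between genotypes in runners and 95.6% in sedentary mice. Counts of members are read against those 7303 genes. Marker genes of several cell types differed with genotype. All 11 granule neuron loci were lower in sedentary cKO, and their summed level was 634 FPKM in cKO runners and 399 FPKM in cKO sedentary mice, against 1819 FPKM in both control groups. Purkinje cell markers, 8 loci, summed to 2435 and 3417 FPKM in cKO runners and cKO sedentary mice, against 1661 and 1697 FPKM in control runners and control sedentary mice. Hindbrain and midbrain markers, 8 of 10 measured in all groups, summed to 84.4 and 69.8 FPKM in cKO runners and cKO sedentary mice, against 12.7 and 18.2 FPKM in control runners and control sedentary mice. Choroid plexus markers, 3 of 6 measured in all groups, summed to 640, 671, 537 and 86.5 FPKM in cKO runners, cKO sedentary, control runners and control sedentary mice. Nearly all of that sum was Ttr, at 610, 640, 518 and 77.7 FPKM in the same order. In sedentary mice 5 of the 6 markers were higher in cKO, and Otx2 was lower (6.21 FPKM against 7.97 FPKM in control). Summed markers were also higher in both cKO groups for oligodendrocyte precursors (115 and 114 FPKM in cKO runners and cKO sedentary mice, against 71.1 and 66.9 FPKM in control runners and control sedentary mice). The same held for microglia (72.8 and 68.1 FPKM, against 40.7 and 42.2 FPKM) and for meninges and fibroblasts (116 and 137 FPKM, against 72.3 and 63.1 FPKM), in the same order of groups. Sums for interneurons (1006, 1271, 1017 and 1069 FPKM), mature oligodendrocytes (4297, 4800, 4065 and 4341 FPKM), astrocytes and Bergmann glia (1168, 1310, 1122 and 1136 FPKM) and endothelium (33.7, 33.1, 24.02 and 32.9 FPKM) are given in that order too. No marker of these lists was at 0 in any group. In pooled tissue, fewer cells of a type and less RNA per cell cannot be told apart, and the part of cell composition in the Zfp results was not tested.

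The finger that gives the family its name is shown as coding sequence for 4 KRAB members with large changes, 3 lower and 1 higher in cKO. Capitals mark the codons of the 2 cysteines and 2 histidines of a finger, and of the cysteine that opens the next. The sequences are from the GENCODE M21 coding models on GRCm38, and each gives the first finger of the protein that is followed by the usual linker. They are Zfp760 (chromosome 17, plus strand), Zfp677 (chromosome 17, plus strand), Zfp551 (chromosome 7, minus strand) and Zfp658 (chromosome 7, plus strand).
Zfp760: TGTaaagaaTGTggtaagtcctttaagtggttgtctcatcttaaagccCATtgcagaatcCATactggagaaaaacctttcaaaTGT
Zfp677: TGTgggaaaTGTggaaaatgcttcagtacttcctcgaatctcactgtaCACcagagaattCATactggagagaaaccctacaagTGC
Zfp551: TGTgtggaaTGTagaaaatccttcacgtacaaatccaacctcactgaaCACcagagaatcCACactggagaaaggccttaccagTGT
Zfp658: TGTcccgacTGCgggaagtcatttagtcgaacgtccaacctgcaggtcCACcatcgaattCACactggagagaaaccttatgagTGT
Zfp551 and Zfp677 shared 73.6% of the 87 bases, and Zfp677 and Zfp760 shared 63.2%. Over all 45 pairs of 10 genes compared this way the shared bases ran between 48.3% and 73.6%. Reads can be hard to place where coding sequences are nearly identical, which goes beyond the likeness of these fingers. How the authors treated reads with several matches is not stated in the labels or file headers. Of 169 loci with a coding model, 147 had no window of 100 coding bases in common with a transcript of another coding gene, and 160 had under 10% of windows in common. Among named genes the share was 64.8% for Zfp960 and 13.8% for Zfp442, and their values are uncertain for that reason.

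Zfp genes were lower in cKO cerebellum. In runners 151 of 171 members fell and 15 rose at q below 0.05 in the authors' deposited table, while over all 7303 genes 50.2% fell and 43.6% rose. The median log2 ratio of cKO over control was -0.46 for the members and -0.08 for all genes. In sedentary mice 147 members fell and 19 rose in the authors' deposited table, against 48.8% lower and 46.8% higher among all genes, with medians of -0.50 and -0.04. The median level of a member was 5.001 FPKM in cKO runners and 5.05 FPKM in cKO sedentary mice, against 6.93 FPKM in control runners and 6.88 FPKM in control sedentary mice.

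The direction was mostly shared by both activity states, whose comparisons have no group in common. Lower in both comparisons were 143 members, or 83.6%, against 45.3% of all genes, and 14 members, or 8.19%, were higher in both, against 40.6%. Both cKO values lay below both control values in 144 members, against 45.8% of all genes, and above both in 13 members, against 41.6%. Most shifts were moderate. A fall of at least 2-fold was seen in 7 members in runners (3.70% of all genes) and in 22 in sedentary mice (6.63% of all genes). A rise of at least 2-fold was seen in 4 members in runners (10.4% of all genes) and in 7 in sedentary mice (14.8% of all genes). The members that were not called were Gm15446,Zfp932, Riok2,Zfp97, Zfp382, Zfp420 and Zfp951 in runners, and Riok2,Zfp97, Zfp142, Zfp251, Zfp709 and Zfp827 in sedentary mice.

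**Figure D1:**
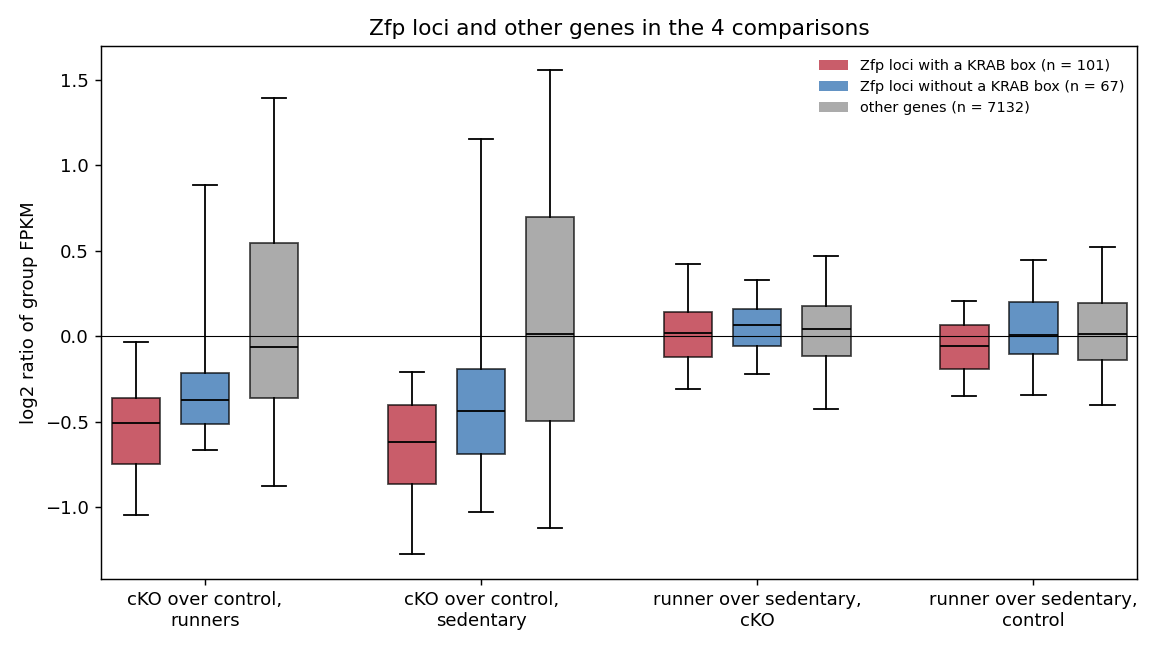
Log2 ratio of group FPKM (vertical axis) in the 4 comparisons for Zfp loci with a KRAB box, Zfp loci without one and the other genes with a value in 4 groups; boxes span the quartiles with the median as a line, and whiskers the 5th to 95th percentile of genes. In the genotype comparisons the boxes of Zfp loci sit below 0, with medians of -0.51 and -0.37 in runners and -0.62 and -0.44 in sedentary mice, while the running comparisons centre near 0.

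Most of the largest decreases were in KRAB zinc finger genes, which made up 101 of the 171 members. Zfp760, a KRAB protein with 16 fingers, stood at 5.49 FPKM in cKO runners and 3.91 FPKM in cKO sedentary mice, against 8.96 FPKM in control runners and 11.1 FPKM in control sedentary mice. Its log2 ratio was -0.71 in runners and -1.51 in sedentary mice (q = 0.000167 in each of the authors' deposited tables). Both cKO groups were lower than both control groups, and the cKO sedentary value was the lowest of the 4. Zfp677 stood at 0.536 and 0.553 FPKM in cKO runners and cKO sedentary mice, against 1.29 FPKM in both control groups. Zfp551 stood at 1.31 and 1.38 FPKM in cKO runners and cKO sedentary mice, against 3.08 and 3.09 FPKM in control runners and control sedentary mice. Both were close to the same low level in the cKO groups whether mice ran or not, with log2 ratios of -1.27 in runners and -1.22 in sedentary mice for Zfp677, and -1.23 and -1.16 for Zfp551 (q = 0.000167 for all 4 in the authors' deposited tables).

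Zfp747 stood at 2.15 and 1.503 FPKM in cKO runners and cKO sedentary mice, against 3.65 and 4.13 FPKM in control runners and control sedentary mice. Zfp940 stood at 4.30 and 3.14 FPKM in cKO runners and cKO sedentary mice, against 7.20 and 8.26 FPKM in control runners and control sedentary mice. In both genes the cKO values were below both control values, and the log2 ratio was -0.77 in runners and -1.46 in sedentary mice for Zfp747, and -0.75 and -1.40 for Zfp940 (q = 0.000167 for all 4 in the authors' deposited tables). Zfp951 differed in this. It was at 1.02 FPKM in cKO runners and 0.564 FPKM in cKO sedentary mice, against 1.05 FPKM in control runners and 2.03 FPKM in control sedentary mice, so that the log2 ratio was -0.03 in runners, where it is not listed, and -1.85 in sedentary mice (q = 0.000167 in the authors' deposited table). Another 5 KRAB genes were among the largest decreases in one state or the other. In runners Zfp442 had a log2 ratio of -1.09, Zfp493 of -1.04, Zfp300 of -0.98, Zfp81 of -0.93 and Zfp599 of -0.92, and all 5 also fell in sedentary mice in the authors' deposited tables.

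Among genes without a KRAB box, Zfp467, a regulator of bone and fat cell fate, stood at 14.4 and 9.88 FPKM in cKO runners and cKO sedentary mice, against 25.2 and 24.6 FPKM in control runners and control sedentary mice. Its log2 ratio was -0.81 in runners and -1.32 in sedentary mice (q = 0.000167 in each of the authors' deposited tables).

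The members that rose were mostly of other kinds. Zfp217, whose human counterpart is an oncogene that works with corepressor complexes, stood at 0.886 and 1.12 FPKM in cKO runners and cKO sedentary mice, against 0.438 and 0.272 FPKM in control runners and control sedentary mice. Its log2 ratio was 1.02 in runners and 2.04 in sedentary mice (q = 0.000167 in each of the authors' deposited tables), the largest increase of a member in sedentary mice. Zfp503, a developmental regulator of neurons, stood at 2.07 and 1.88 FPKM in cKO runners and cKO sedentary mice, against 0.985 and 0.797 FPKM in control runners and control sedentary mice. Its log2 ratio was 1.07 in runners and 1.24 in sedentary mice (q = 0.000167 in each of the authors' deposited tables).

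Zfp618 had a log2 ratio of 0.89 in runners and 1.26 in sedentary mice. Zfp185, a LIM domain protein that binds actin and has no C2H2 finger, had ratios of 0.76 and 1.17. Zfp750, a regulator of skin cell differentiation, was at 1.09 in runners and 0.62 in sedentary mice, and Zfp366, known from dendritic cells, at 0.37 and 0.48. All of these passed the threshold in both of the authors' deposited tables. Only 2 KRAB members were higher in both comparisons. Zfp658 stood at 7.58 and 11.7 FPKM in cKO runners and cKO sedentary mice, against 3.97 and 4.42 FPKM in control runners and control sedentary mice, with log2 ratios of 0.93 in runners and 1.40 in sedentary mice (q = 0.000167 in each of the authors' deposited tables). The other, Zfp92, was under 1 FPKM in every group.

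**Figure D2:**
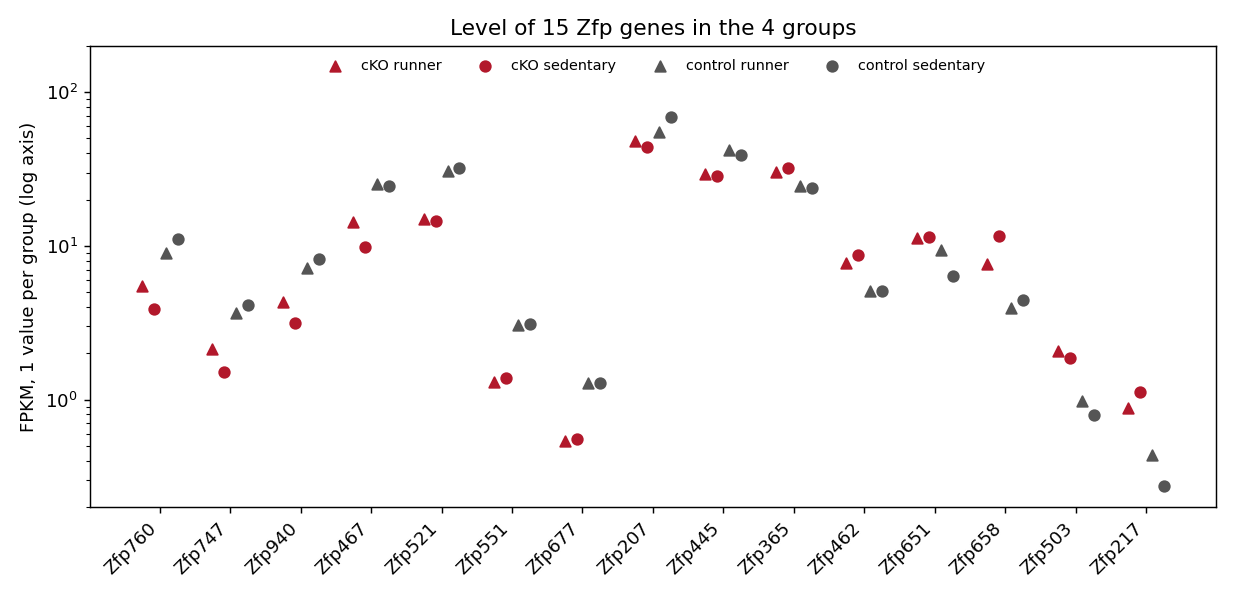
FPKM on a log axis for 15 Zfp genes, with 1 point per group: triangles for runners, circles for sedentary mice, red for cKO and grey for control. For Zfp677 and Zfp551 the red points lie together below the grey ones, and for Zfp658, Zfp503 and Zfp217 they lie above.

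Split by structure, the fall was seen with and without the KRAB box. Of 101 loci whose Zfp proteins all have a KRAB box, 94 fell and 3 rose in runners, and 94 fell and 4 rose in sedentary mice, in the authors' deposited tables. Of 67 loci without one, 54 fell and 12 rose in runners, and 50 fell and 15 rose in sedentary mice. Among all genes the shares that fell were 50.2% in runners and 48.8% in sedentary mice, and those that rose 43.6% and 46.8%. The median log2 ratios in runners were -0.51 with and -0.37 without a KRAB box, and in sedentary mice -0.62 and -0.44. The difference between the classes was not tested and its size rests on how the box is found: with a text pattern in place of the sequence profile, 52 loci were counted as KRAB, and the medians were -0.55 with and -0.43 without the box in runners, and -0.55 and -0.50 in sedentary mice. The gap between the classes was thus nearly as wide as with the profile in runners and narrower in sedentary mice. The class called KRAB by the pattern is smaller because it misses known KRAB proteins. The profile may miss some too, so loci without a KRAB box are those in which none was found.

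Of 7 loci without a match to the finger pattern, 5 rose and 2 fell in each genotype comparison, where 43.6% of all genes rose in runners and 46.8% in sedentary mice. The number is too small to read a difference from. These were Zfp185, Zfp365, Zfp474, Zfp503 and Zfp750 above control, and Zfp330 and Zfp781 below. Zfp781 shares 100.0% of its coding windows with another gene, so its value is uncertain. With 1 to 5 fingers, 22 of 24 loci fell in runners and 20 in sedentary mice, and with 6 to 10, 36 of 42 fell in runners and 35 in sedentary mice. With 11 to 15 fingers, 62 of 66 loci fell in either comparison. With 16 or more, 27 of 30 fell in runners and 26 in sedentary mice. Among all members 88.3% fell in runners and 86.0% in sedentary mice, and among all genes 50.2% and 48.8%. A relation to the number of fingers was not tested. Divided by mean level into 4 sets of like size, the members had medians in sedentary mice of -0.76, -0.60, -0.40 and -0.53, low to high. In runners the medians were -0.62, -0.53, -0.42 and -0.37 in the same order. A relation to level was not tested.

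**Figure D3:**
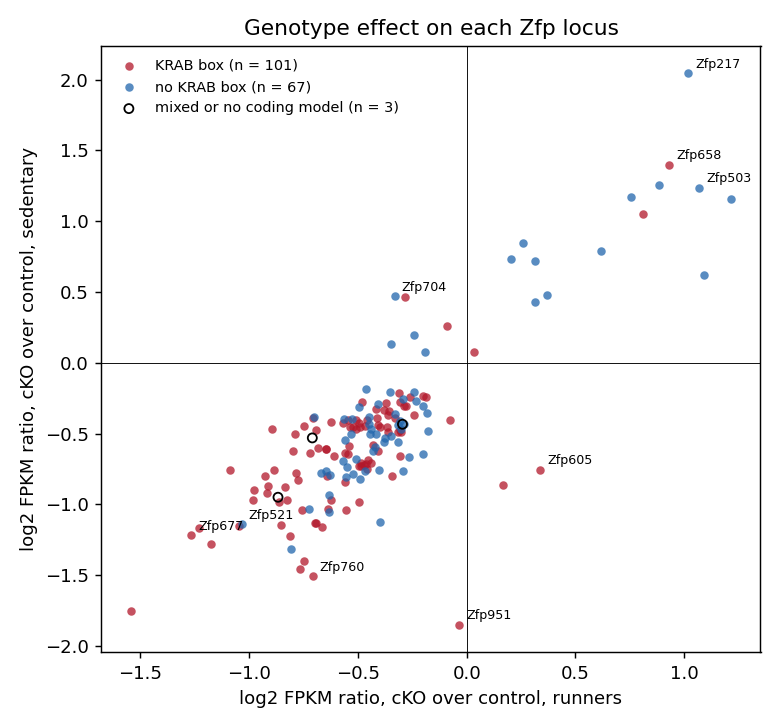
Log2 FPKM ratio of cKO over control for each of 171 Zfp loci, in runners (horizontal axis) and in sedentary mice (vertical axis), coloured by KRAB box. The 143 loci lower in both comparisons lie in the lower left quadrant, and Zfp217, Zfp658 and Zfp503 stand in the upper right.

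Genes of proteins with which the KRAB box works were looked at beside the members. Of 24 corepressor and heterochromatin genes listed, 17 had a value in all 4 groups, of which 13 fell and 2 rose in runners and 12 fell and 5 rose in sedentary mice in the authors' deposited tables. Over all genes 50.2% fell and 43.6% rose in runners, and 48.8% fell and 46.8% rose in sedentary mice. Trim28, the corepressor itself, stood at 40.1 and 36.2 FPKM in cKO runners and cKO sedentary mice, against 47.8 and 49.2 FPKM in control runners and control sedentary mice. Its log2 ratio was -0.25 in runners and -0.44 in sedentary mice. Setdb1, the methyltransferase it recruits, was at -0.28 and -0.29 (q = 0.000167 for all 4 in the authors' deposited tables). Cbx5, a heterochromatin protein, was at 0.23 in runners and 0.43 in sedentary mice, and the histone methyltransferase Ehmt2 at 0.12 and 0.44, both called higher in both of the authors' deposited tables. The remodeller Chd4 was at -0.14 and 0.15, and the DNA methyltransferase Dnmt3a at -0.43 and 0.07, called lower in runners and higher in sedentary mice. Chd3, another remodeller, was at 0.04 in runners, where it is not listed, and at 0.75 in sedentary mice. In other C2H2 families, counted the same way, 9 of 15 Zbtb genes fell and 4 rose in runners, and 8 fell and 6 rose in sedentary mice. The 5 Zkscan genes fell in runners and 4 of them in sedentary mice, and the 3 Zscan and 3 Zic genes fell in both. Of 17 Zfp loci with letters after the digits, 12 fell and 5 rose in each comparison. These 17 are not all C2H2 loci. Among the 5 that rose are Zfp36l1 and the joined locus Thada,Zfp36l2, whose Zfp proteins are of another zinc finger type. Of 6 Klf genes, 3 fell and 3 rose in runners, and 2 fell and 2 rose in sedentary mice.

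Members with a known role follow by list. In the nervous system, Zfp521, which acts in progenitors of neurons, stood at 15.02 and 14.6 FPKM in cKO runners and cKO sedentary mice, against 30.8 and 32.2 FPKM in control runners and control sedentary mice, a log2 ratio of -1.03 in runners and -1.14 in sedentary mice. Zfp335, whose loss causes microcephaly in humans and mice, was at -0.35 and -0.51, and Zfp292 at -0.53 and -0.40. Zfp462, a chromatin factor with 33 fingers, was at 0.62 and 0.79, Zfp516 at 0.31 and 0.72, and Zfp365, a protein of neurites and oligodendrocytes, at 0.31 and 0.43. All of these passed the threshold in both of the authors' deposited tables. Of the 12 symbols on this list, matched as written, 10 appeared in any table and 7 in all 4 groups. Of these 7, 3 rose and 4 fell in runners, and 4 rose and 3 fell in sedentary mice. That is near the shares of all genes (43.6% higher and 50.2% lower, and 46.8% and 48.8%). The listed Zfp238 is an older symbol of Zbtb18, which is not among the 7 and is counted with the Zbtb genes. Zbtb18 stood at 81.1 and 80.8 FPKM in cKO runners and cKO sedentary mice. In control runners and control sedentary mice it stood at 222 and 214 FPKM, with log2 ratios of -1.45 in runners and -1.40 in sedentary mice.

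Of 6 genes listed for imprinting and retroelement control, 5 appeared in any table and 3 in all 4 groups. Zfp445, which protects imprinted genes together with Zfp57, stood at 29.5 and 28.4 FPKM in cKO runners and cKO sedentary mice, against 41.9 and 39.3 FPKM in control runners and control sedentary mice, with log2 ratios of -0.51 in runners and -0.47 in sedentary mice (q = 0.000167 in each of the authors' deposited tables). Zfp568, which represses a placental transcript of Igf2, was at -0.55 and -0.40. The joined locus Gm15446,Zfp932 was at 13.4 and 16.7 FPKM in cKO runners and cKO sedentary mice, against 11.95 and 30.3 FPKM in control runners and control sedentary mice. It shares 24.9% of its coding windows with another gene, which makes that value uncertain.

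Of 8 promoter factor symbols listed, matched as written, 6 appeared in any table and 5 in all 4 groups. Of these 5, 4 fell and 1 rose in both comparisons, where 45.3% of all genes fell and 40.6% rose in both. The listed Zfp161 is an older symbol of Zbtb14, which is not among the 5. Zbtb14 had 2 loci with a value in all 4 groups. The log2 ratios were -0.23 in runners and -0.21 in sedentary mice for 1 locus, and 0.44 and 1.41 for the other. Zfp143, the mouse counterpart of ZNF143, an activator of many housekeeping promoters, stood at 5.001 and 4.53 FPKM in cKO runners and cKO sedentary mice, against 6.91 and 7.68 FPKM in control runners and control sedentary mice. Its log2 ratio was -0.47 in runners and -0.76 in sedentary mice (q = 0.000324 and 0.000167 in the authors' deposited tables). Zfp148 was at -0.45 and -0.43, Zfp263 at -0.45 and -0.39, and Zfp64 at -0.31 and -0.44. The riser was Zfp217. Zfp207, a mitotic spindle and RNA-binding protein and the most abundant single-symbol member, stood at 48.3 and 44.1 FPKM in cKO runners and cKO sedentary mice, against 55.5 and 68.8 FPKM in control runners and control sedentary mice.

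The members lie unevenly on the genome. With at most 500 kb between neighbours and at least 4 loci, 7 clusters held 54 members, of which 52 fell and none rose in runners, and 52 fell and 2 rose in sedentary mice, in the authors' deposited tables. Of 117 members outside the clusters, 99 fell and 15 rose in runners and 95 fell and 17 rose in sedentary mice, so the fall was common there too, while 50.2% and 48.8% of all genes were lower. The median log2 ratio was -0.56 in the clusters and -0.42 outside in runners, and -0.62 and -0.48 in sedentary mice. The difference was not tested. The cluster on chromosome 17 between 21383748 and 22361400 (mm10) held 11 loci, all with a KRAB box, and all fell in both comparisons, with log2 ratios in sedentary mice between -1.51 and -0.39. The cluster on chromosome 13 between 67038596 and 67827002 held 9 loci, and all fell in both comparisons, between -1.16 and -0.39 in sedentary mice. Zfp760 and Zfp677 lie in the chromosome 17 cluster, and Zfp493 in that of chromosome 13. The 2 clustered loci that rose in sedentary mice were Zfp871 on chromosome 17, in the cluster between 32765496 and 33631779, and Zfp382 on chromosome 7, in the cluster between 29783998 and 30169750.

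**Figure D4:**
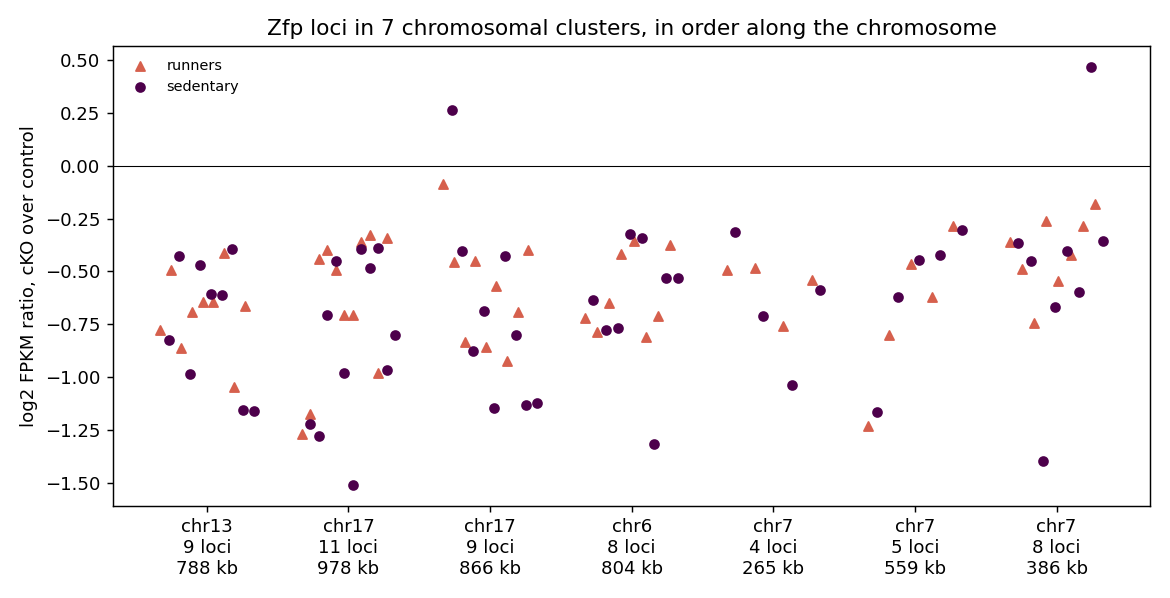
Log2 FPKM ratio of cKO over control (vertical axis) for the Zfp loci of 7 chromosomal clusters, each locus with a triangle for runners and a circle for sedentary mice, in order along the chromosome. In the clusters of 9 loci on chromosome 13 and of 11 loci on chromosome 17 every point lies below 0.

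Promoters of the members were searched for 8 motifs on both strands of a window of 250 bases before to 50 after the gene start, for the 148 symbols with a RefSeq promoter (GRCm38.p6). A core of the ZNF143 motif, whose letters are the capitals in the windows shown here, stood in promoters of 7 member symbols, or 4.73%. The share was 0.647% for genes with a value in 4 groups and 0.322% for all genes with a promoter. All 7 belong to loci lower in both genotype comparisons, as do 127 of the 148 symbols with a promoter. The 7 are not independent, since Zfp93 and Zfp108 are symbols of the same joined locus, which lies near Zfp180 on chromosome 7. The ETS letters CCGGAAG stood in 21.6% of member promoters, against 14.8% and 9.93%, and the SP/KLF letters CCCCGCCC in 20.9%, against 37.9% and 19.6%. A match is a description of the letters and not of binding. The windows of Zfp58, Zfp128 and Zfp454 show the match with its surroundings. They are chr13:67500473-67500772 (minus strand), chr7:12880928-12881227 (plus strand) and chr11:50887452-50887751 (minus strand).
Zfp58: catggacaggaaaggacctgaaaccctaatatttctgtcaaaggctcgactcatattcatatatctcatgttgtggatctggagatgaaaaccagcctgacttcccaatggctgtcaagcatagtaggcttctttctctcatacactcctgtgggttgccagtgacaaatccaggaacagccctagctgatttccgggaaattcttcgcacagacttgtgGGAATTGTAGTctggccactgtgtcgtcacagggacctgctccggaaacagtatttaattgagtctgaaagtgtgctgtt
Zfp128: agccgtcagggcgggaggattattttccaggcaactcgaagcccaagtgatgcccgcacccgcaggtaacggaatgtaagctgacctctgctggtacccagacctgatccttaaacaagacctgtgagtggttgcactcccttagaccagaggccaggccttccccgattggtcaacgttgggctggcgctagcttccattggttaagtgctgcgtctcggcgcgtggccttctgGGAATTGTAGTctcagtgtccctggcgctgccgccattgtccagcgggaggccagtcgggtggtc
Zfp454: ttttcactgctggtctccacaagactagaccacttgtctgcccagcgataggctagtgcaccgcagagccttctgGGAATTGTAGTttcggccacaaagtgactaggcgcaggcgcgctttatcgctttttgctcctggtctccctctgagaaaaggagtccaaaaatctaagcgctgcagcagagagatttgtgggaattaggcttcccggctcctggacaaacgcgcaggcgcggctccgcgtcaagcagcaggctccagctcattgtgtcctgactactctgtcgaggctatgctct
The genes stood at 2.87, 2.19 and 1.71 FPKM in cKO runners, 2.59, 2.34 and 1.45 FPKM in cKO sedentary mice, 4.63, 3.37 and 2.77 FPKM in control runners and 3.60, 3.13 and 3.19 FPKM in control sedentary mice, in the order Zfp58, Zfp128 and Zfp454. Each was lower in both cKO groups than in both control groups.

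Fewer members passed the threshold with running than between genotypes. This follows in part from the choice of members, since 167 of the 171 were listed in both genotype comparisons and so had a value in all 4 groups. In cKO mice 18 rose and 11 fell in the authors' deposited table, against 24.2% and 17.6% of all genes (41.8% in either direction), and 142 were not called. In control mice 20 rose and 22 fell in the authors' deposited table, against 26.0% and 18.5% of all genes (44.6% in either direction), and 129 were not called. The median log2 ratio of runner over sedentary was 0.03 in cKO and -0.04 in control mice, against 0.04 and 0.01 over all genes. The same sedentary and runner groups enter the genotype comparisons, so the 4 comparisons are not independent.

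In cKO mice the largest increases with running were Zfp951 with a log2 ratio of 0.86, Zfp605 with 0.75, Zfp366 with 0.57 and Zfp467 with 0.54, and the largest decreases Zfp658 with -0.62, Zfp949 with -0.43, Zfp943 with -0.37 and Zfp704 with -0.36. In control mice the largest increases were Zfp382 with 0.76, Zfp217 with 0.69, Zfp366 with 0.68 and Zfp651 with 0.56, and the largest decreases Zfp951 with -0.96, Zfp943 with -0.43, Zfp944 with -0.41 and Zfp120 with -0.37. All of these passed the threshold in the authors' deposited tables. Zfp366 rose and Zfp943 fell with running in both genotypes. Zfp366 stood at 1.89 FPKM in cKO runners and 1.27 FPKM in cKO sedentary mice, and at 1.46 FPKM in control runners and 0.912 FPKM in control sedentary mice.

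For 12 of 167 members listed in both genotype comparisons (7.19%), the genotype effect differed between runners and sedentary mice by a two-sided z test with Benjamini-Hochberg adjustment over 6751 genes, against 28.0% of all genes tested. At an unadjusted p under 0.05 there were 21 of the 167 members, against 2303 of the 6751 genes tested. With standard errors from the running tables, which list 19 members in both, 10 were called (52.6%, against 66.9% of all genes so tested), 6 more positive and 4 more negative in runners, where the 12 were 5 and 7. In the 2 genotype comparisons, 5 of 171 members were called in opposite directions, against 367 of all 7303 genes. The 5 were Zfp605, Zfp687, Zfp704, Zfp871 and the joined locus Cntf,U05342,Zfp91. Relative to genes of like transcript length the sedentary ratio turned negative for Zfp687 (-0.13), Zfp871 (-0.10) and Cntf,U05342,Zfp91 (-0.045), so for these 3 the opposite direction rests on the scaling. Zfp605, a KRAB protein with 12 fingers, stood at 5.64 FPKM in cKO runners and 3.35 FPKM in cKO sedentary mice, against 4.46 FPKM in control runners and 5.65 FPKM in control sedentary mice. Its log2 ratio of cKO over control was 0.34 in runners and -0.75 in sedentary mice, a difference of 1.09 ± 0.25 (standard error). Running went with a higher level in cKO mice and a lower one in control mice. Zfp704 did the opposite, with 4.75 FPKM in cKO runners and 6.08 FPKM in cKO sedentary mice, against 5.97 FPKM in control runners and 4.39 FPKM in control sedentary mice, a difference of -0.80 ± 0.15.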

How the data were processed

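Polyadenylated RNA was sequenced as paired reads of 100 bases, per the labels' protocols. The build mm10 and the tools Cuffdiff, Cufflinks 2.1.1, TopHat and TopHat2 2.0.8b are listed in the submitters' processing notes. Each deposited table gives 1 FPKM per group, a log2 fold change, a test statistic (used as a score), a p-value and a q-value, all made by the authors with Cuffdiff per the file headers. All 13151 FPKM values that occur in several tables were identical. Log2 ratios were recomputed from the FPKM, cKO over control or runner over sedentary, and differed from the deposited ones by at most 1.09e-05. Genes were called at q below 0.05. No library values were used, so no depth, SD or pairing could be computed, and p-values measure only the spread between libraries that may be technical.

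The difference between genotype effects is a z test with standard errors of fold change over statistic. Among genes above the smallest p, the statistic was 0.727 (sedentary) and 0.720 (runners) times the normal quantile of p, so these errors are wide. On simulated data for this test over 6751 genes, 170 of 200 changes of 1 log2 were recovered, with 7 false calls. The simulated noise was normal and drawn with the same standard errors that the test uses. The simulation therefore cannot show how many calls on the real data are false.

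Fingers were counted in the longest GENCODE M21 coding sequence as C, 2 to 4 residues, C, 12 residues, H, 3 to 5 residues, H. KRAB boxes were found with a HMMER 3.4 profile built from 129 mouse windows (E below 0.0001). 2 text patterns had been tried before and missed known KRAB proteins; the profile replaced them after fold changes had been seen. The members and gene lists were chosen with earlier results of these data known. The 8 motifs, the cluster definition, the finger and level bins, the shared-window limit, the genes whose sequences are printed and the tolerance of 0.1 log2 for a moved median were likewise chosen after member values had been seen. Zfp932, Zfp91, Zfp474, Zfp92, Zfp781, Zfp58, Zfp128 and Zfp454 are also outside the rule for the largest changes. That rule took, among loci with 1 symbol and at least 1 FPKM in a group, the 8 largest called changes per direction and genotype comparison and the 4 largest per running comparison, with the 5 most abundant members and the role lists. Computation used Python 3.11.15, pandas 2.3.3, SciPy 1.17.1 and Biopython 1.88.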

Additional observations from a re-analysis of the deposited data

Results flagged for a closer look

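The genotype effect differed between runners and sedentary mice (runners minus sedentary, log2) in 12 of 167 members tested (7.19%). By the same z test, adjusted over 6751 genes, it differed in 28.0% of all genes tested. The effect was more positive in runners for Zfp605 (1.09), Zfp760 (0.80), Pram1,Zfp414 (0.73), Zfp207 (0.44) and Commd5,Rpl8,Zfp7 (0.33), the last a joined locus whose level is not that of a zinc finger gene. It was more negative in runners for Zfp704 (-0.80), Zfp382 (-0.75), Zfp651 (-0.59), Crip3,Zfp318 (-0.53), Zfp687 (-0.48), Cntf,U05342,Zfp91 (-0.44) and Zfp871 (-0.35). Zfp382 had a log2 ratio of cKO over control of -0.28 in runners, where q = 0.05001 in the authors' deposited table just missed the threshold, and of 0.47 in sedentary mice.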

How the results depend on the processing

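The counts of members lower in cKO and the medians of both genotype comparisons kept their direction and stayed within 1.5 times (counts) or 0.1 log2 (medians) under every setting tried on all members. Counts that moved further follow, some of them from sets of another size. Of the 256 loci of any table, 30 (11.7%) were higher in sedentary cKO, against 19 of the 171 members (11.1%). With running, 19 of the 256 (7.42%) were lower in cKO mice, against 11 members (6.43%). In control mice 42 of the 256 (16.4%) were higher with running, against 20 members (11.7%). Of the 147 loci of 1 symbol, 7 (4.76%) were lower with running in cKO mice. Another setting required the larger group value to be at least 25% above the smaller. Under it, 11 were higher and 5 lower with running in cKO mice (18 and 11 otherwise). With running in control mice, 10 were higher and 10 lower under the same minimum (20 and 22 otherwise). The median running ratio in cKO mice was -0.0079 after centring on all genes (0.03 otherwise). The settings on structure were added after seeing the data. With KRAB called by text pattern 1 or 2, KRAB loci lower in cKO runners numbered 50 or 54 (94 with the profile), higher in cKO runners 1 (3) and lower in sedentary cKO 48 or 52 (94), and loci without KRAB lower in cKO runners numbered 98 or 94 (54) and in sedentary cKO 96 or 92 (50), since the patterns find fewer boxes. Leaving out loci that share 10% or more of coding windows, or setting the cluster gap to 250 or 1000 kb, moved no count by more than 1.5 times. Centring on genes of like transcript length turned the sign for Zfp445 in control running (-0.028), Zfp871 in sedentary genotype (-0.10) and control running (-0.12), Zfp687 in sedentary genotype (-0.13) and Cntf,U05342,Zfp91 in sedentary genotype (-0.045); the cause was not tested. Of 128 calls of named genes, 20 were lost at q below 0.01. No paired analysis was possible because the tables hold 1 value per group. For the same reason no library could be left out.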
